A study of Homo sapiens with 6 samples.

Results

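The genes described are those of the aminoacyl-tRNA synthetases, 37 of the 13271 genes in the deposited table, chosen by symbol: a letter for the amino acid followed by ARS, with or without a final digit, plus EPRS, FARSA, FARSB and PARS2. Of these, 18 encode cytosolic enzymes, 17 have a symbol ending in 2 and encode mitochondrial enzymes, and 2, GARS and KARS, serve both compartments from 1 gene and were counted apart. RNA was compared between 2 groups of 5637, a human bladder cancer cell line: 3 libraries from cells transfected with a MAT1A plasmid and 3 from cells given an empty vector (control), all by a lipid reagent at 50% confluency, with lysis 48 h later. MAT1A encodes the liver-type methionine adenosyltransferase, which makes S-adenosylmethionine, the methyl donor of the cell, from methionine and ATP. The expression was transient, in 1 cell line, and whether replicates came from separate cultures is not in the labels. The p-values therefore reflect library-to-library spread, part or all of which may be technical, and in RNA from whole dishes fewer cells of a type and less RNA per cell cannot be told apart.

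Aminoacyl-tRNA synthetases join each amino acid to its tRNA and so set which amino acid a codon gives. Human cells keep largely separate nuclear genes for the cytosolic and the mitochondrial enzyme, and several cytosolic enzymes sit together in a multi-synthetase complex held by scaffold proteins. When amino acids run short, the transcription factor ATF4 raises many cytosolic synthetase genes through C/EBP-ATF response elements in their promoters, and WARS is also known as a target of interferon gamma.

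Each value is a gene's reads per unit of normalised library size, close to the CPM scale. Reads recovered over the genes of the deposited table summed to 18707488 to 21570890 in MAT1A libraries and 17390421 to 20675676 in control libraries. MAT1A itself stood at 1805, 1834 and 1917 in MAT1A libraries 1, 2 and 3, against 1.09, 0.253 and 4.54 in control libraries 1, 2 and 3. All 11 urothelial and epithelial markers were measured, with a summed level of 13675 to 14960 in MAT1A libraries and 12821 to 13179 in control libraries. By the rule for calls given below, 5 of the 11 were called higher and 1 lower, against 4.01% and 7.40% of all genes tested. Markers of skeletal muscle, 12 of 12 measured, summed to between 44.3 and 92.1 in MAT1A libraries and between 93.4 and 467 in control libraries, highest in control 1, and 11 of them were called lower. Of 6 fibroblast markers the 3 collagen genes were measured (120.8 to 128 in MAT1A libraries, 142.5 to 259 in control libraries), and 1 was called lower. Of 5 immune markers LYZ was measured and of 3 endothelial markers VWF, each below 2. The part of these other transcripts in the results was not tested beyond leaving out each library.

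All 37 synthetase genes passed the filter on low values (at least 1 in at least 3 libraries), and their differences between groups were small. Changes are given as log2(value + 1), MAT1A minus control, from limma, and a gene is called at a Benjamini-Hochberg adjusted p under 0.05 over the 12866 genes tested. By this rule 6 synthetase genes were called higher in MAT1A libraries, KARS, EPRS, WARS, FARSB, IARS2 and TARS2, and 0 were called lower, while 2 lower genes, TARS and CARS, had an unadjusted p under 0.05 (14.2% of all genes were lower at that level). Across all genes tested, 4.01% were called higher and 7.40% lower, against 16.2% and 0 among the synthetase genes. The 3 MAT1A libraries lay above all 3 control libraries for 13 synthetase genes (35.1%, against 14.7% of all genes) and below them for 3 (8.11%, against 15.6%). The median log2 change was 0.060 over the 37 genes and 0.004 over all genes. Log2 changes ran from -0.098 for CARS to 0.22 for SARS2. The calls depend on single libraries: of the cytosolic set 0 were called higher without control 1 or control 3, and 1 without MAT1A 1. Of the mitochondrial set 0 were called higher without control 3, and 1 without MAT1A 1, MAT1A 2, control 1 or control 2. Without control 1, where the muscle markers were highest, KARS, EPRS, WARS, FARSB, IARS2 and TARS2 had log2 changes of 0.14, 0.11, 0.12, 0.11, 0.15 and 0.14. DESeq2 on the recovered reads did not call WARS, FARSB or TARS2 (adjusted p of 0.0582, 0.0853 and 0.129).

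**Figure D1:**
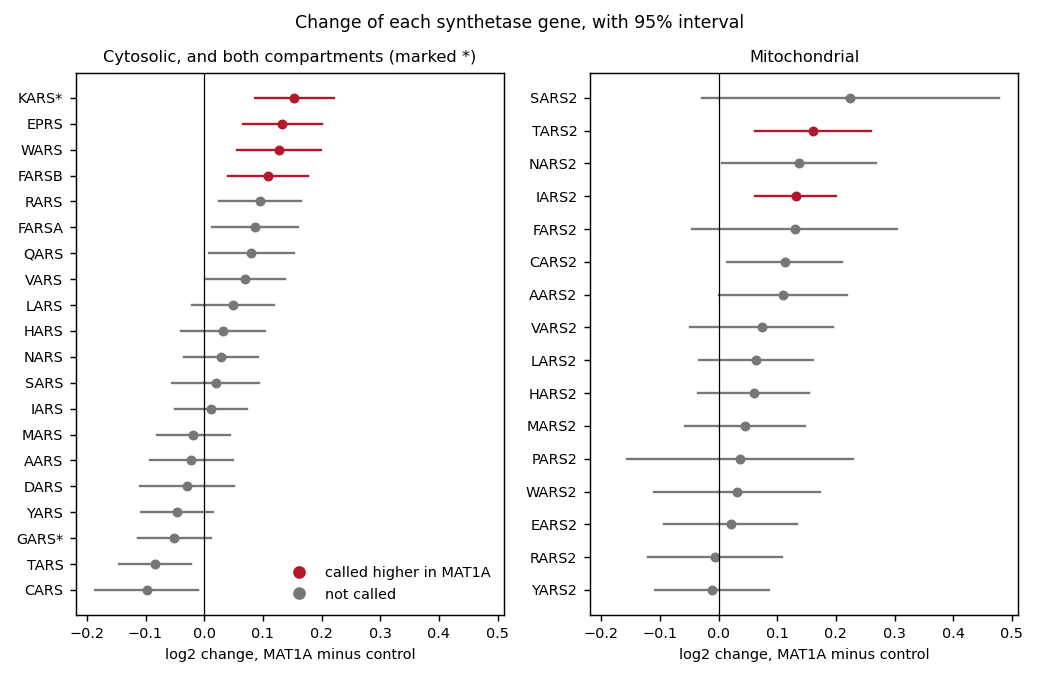
Log2 change (x axis, MAT1A minus control) of the 20 cytosolic and both-compartment genes and 16 of the 17 mitochondrial genes, ordered by size; points are limma estimates and lines 95% intervals over 3 libraries per group. The 6 red genes were called higher, 0 were called lower, and 14 of the 16 mitochondrial points drawn lie above 0.

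KARS, the lysyl-tRNA synthetase gene, was called higher under every setting tried. The gene (GRCh38 chromosome 16, 75627474 to 75648643, minus strand) makes both the cytosolic and the mitochondrial enzyme by alternative splicing. Its value was 247, 257 and 259 in MAT1A libraries 1, 2 and 3 and 226, 234 and 225 in control libraries 1, 2 and 3. Every MAT1A library was above every control library. The means were 254 ± 6.21 and 228 ± 5.14 (SD, n = 3 each), a difference of 11.3% and a log2 change of 0.15 with a 95% interval of 0.086 to 0.22 (limma adjusted p = 0.00456). KARS kept its call under all 19 alternatives, leaving out any library included (adjusted p up to 0.0394). It shares 176 exon bases with TERF2IP, which runs antisense to it and had a log2 change of -0.10 (adjusted p = 0.289).

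KARS belongs to the multi-synthetase complex, along with EPRS, RARS, QARS, LARS, IARS, MARS and DARS. Of these 8 genes, 2 were called higher (25%, against 4.01% of all genes) and 6 had a positive change (75%, against 51.5%). The median log2 change was 0.065, against 0.004 over all genes. Of the 12 cytosolic and both-compartment genes outside the complex, 2 were called higher, 7 were positive and the median was 0.024. This split was made after values were seen. EPRS, the fused glutamyl- and prolyl-tRNA synthetase gene (chromosome 1, 219968601 to 220046658, minus strand), had 327, 336 and 329 in MAT1A libraries 1, 2 and 3 and 291, 311 and 303 in control libraries 1, 2 and 3. The groups did not overlap, with means of 331 ± 4.74 and 302 ± 10.2 (SD, n = 3 each) and a log2 change of 0.13 (95% interval 0.066 to 0.20, limma adjusted p = 0.0119). EPRS lost its call without control 1 (adjusted p = 0.0926, log2 change 0.11) or control 3 (0.0507).

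RARS, the arginyl enzyme, averaged 236 ± 7.13 in MAT1A and 221 ± 5.57 in control libraries (SD, n = 3 each), a log2 change of 0.094 that missed the threshold (limma adjusted p = 0.0767) and passed with the replicate number as a block (0.0179). QARS, the glutaminyl enzyme, averaged 141 ± 3.91 and 134 ± 2.84 in MAT1A and control libraries (log2 change 0.080, adjusted p = 0.145). In both genes the MAT1A libraries lay above the control libraries. The leucyl, isoleucyl, methionyl and aspartyl genes LARS, IARS, MARS and DARS overlapped between groups, with log2 changes of 0.049, 0.012, -0.019 and -0.030. Their 95% intervals together ran from -0.110 to 0.119. MARS shares 355 exon bases with DDIT3 on the opposite strand, a stress gene at 6.43 ± 0.61 in MAT1A and 8.75 ± 0.95 in control libraries. The complex's scaffold genes AIMP1, AIMP2 and EEF1E1 had log2 changes of 0.034, 0.089 and 0.085, and 0 of the 3 was called or had an unadjusted p under 0.05. With 4.01% of all genes called higher and 7.40% lower, 0 calls among 3 genes says little.

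Outside the complex, WARS and FARSB were called higher. WARS, the tryptophanyl enzyme (chromosome 14, 100333788 to 100376805, minus strand), had 113.8, 113.7 and 116 in MAT1A libraries 1, 2 and 3 and 103.5, 106 and 105 in control libraries 1, 2 and 3. The groups did not overlap, with means of 115 ± 1.503 and 105 ± 1.43 (SD, n = 3 each), with a log2 change of 0.13 (95% interval 0.057 to 0.20, limma adjusted p = 0.0205). The call was lost without MAT1A 1 (adjusted p = 0.0552), control 1 (0.0963) or control 3 (0.0875). WARS shares 287 exon bases with WDR25 on the opposite strand (log2 change -0.003).

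FARSA and FARSB encode the 2 subunits of the cytosolic phenylalanyl enzyme, and of these FARSB was called. FARSB had 159.7, 160.7 and 166 in MAT1A libraries 1, 2 and 3, against 150.4, 152 and 148 in control libraries 1, 2 and 3. FARSA had 143, 144 and 137.4 in MAT1A libraries 1, 2 and 3, against 129.9, 133 and 136.9 in control libraries 1, 2 and 3. Neither gene overlapped between groups, though MAT1A 3 and control 3 nearly met for FARSA. The log2 changes were 0.11 for FARSB (95% interval 0.041 to 0.18, limma adjusted p = 0.0383) and 0.087 for FARSA (0.014 to 0.16, adjusted p = 0.118). FARSB kept its call without MAT1A 2 alone among the leave-one-out fits (adjusted p up to 0.166, without control 3), and lost it with a library total that leaves out MAT1A (0.0643).

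VARS, the valyl enzyme gene, averaged 204 ± 4.83 and 194 ± 4.33 in MAT1A and control libraries (SD, n = 3 each; log2 change 0.069, limma adjusted p = 0.187). The asparaginyl, histidyl, seryl and alanyl genes NARS, HARS, SARS and AARS had log2 changes of 0.029, 0.031, 0.020 and -0.022, all with 95% intervals that held 0. For NARS the groups did not overlap but nearly met, at 189.6 to 193 in MAT1A and 187 to 189.2 in control libraries.

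At the low end were the threonyl, cysteinyl, glycyl and tyrosyl genes, none of which was called. TARS (chromosome 5, 33440696 to 33469539, plus strand) had 375, 384 and 383 in MAT1A libraries 1, 2 and 3 and 397, 411 and 404 in control libraries 1, 2 and 3. Every MAT1A library was below every control library. The log2 change was -0.084 (95% interval -0.15 to -0.023), which missed the threshold (limma adjusted p = 0.0711). It passed with the replicate number as a block (0.0161), with a library total that leaves out MAT1A (0.0350), with the length and GC trend removed (0.0282) and without MAT1A 2 (0.0418). TARS did not pass by edgeR (0.0694) or DESeq2 (0.095) on recovered reads, or without any other library (limma adjusted p up to 0.223).

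CARS, the cysteinyl gene, had 79.0, 84.9 and 82.3 in MAT1A libraries 1, 2 and 3 and 88.7, 91.0 and 84.0 in control libraries 1, 2 and 3, with MAT1A 2 above control 3. Its log2 change was -0.098 (95% interval -0.19 to -0.011, limma adjusted p = 0.139), and -0.12 and called with the length and GC trend removed (0.0401). CARS was not called by edgeR (0.141) or DESeq2 (0.301) on recovered reads, or without any 1 library (limma adjusted p from 0.0657 to 0.386). GARS, the glycyl gene of both compartments, had 284, 288 and 286 in MAT1A libraries 1, 2 and 3 and 289, 298 and 300.3 in control libraries 1, 2 and 3. The groups did not overlap, with a narrow gap between MAT1A 2 and control 1, and the log2 change was -0.051 (95% interval -0.11 to 0.011, adjusted p = 0.290). YARS, the tyrosyl gene, averaged 247 ± 1.96 in MAT1A and 255 ± 2.52 in control libraries (SD, n = 3 each), without overlap (log2 change -0.047, adjusted p = 0.327). The 2 genes that serve both compartments thus differed in sign, KARS at 0.15 and GARS at -0.051, a contrast given as values and not tested.

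**Figure D2:**
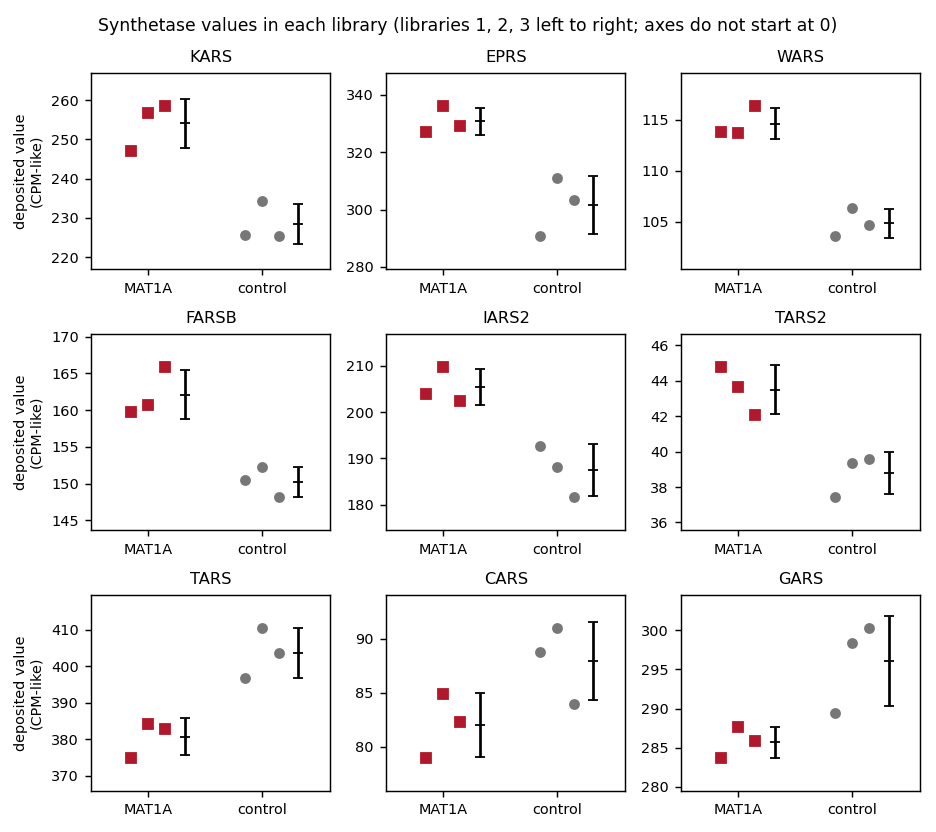
Deposited values (CPM-like scale, y axis, not starting at 0) of 9 synthetase genes in each library, with mean ± SD over 3 libraries; squares are MAT1A and circles control. KARS lies between 247 and 259 in MAT1A libraries against 225 to 234 in control libraries, and TARS between 375 and 384 against 397 to 411.

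Of the 17 mitochondrial genes, 2 were called higher (11.8%, against 4.01% of all genes), 0 lower (against 7.40%) and 15 not called. Changes were positive for 15 of 17, against 12 of 18 cytosolic genes and 51.5% of all genes, and the median log2 change was 0.074, against 0.030 for the cytosolic set. In 4 of the 17 genes (23.5%, against 14.7% of all genes) the MAT1A libraries lay wholly above the control libraries, and in 0 (against 15.6%) wholly below.

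IARS2, the mitochondrial isoleucyl gene (chromosome 1, 220094102 to 220148041, plus strand), had 204, 209.8 and 202 in MAT1A libraries 1, 2 and 3 and 193, 188 and 182 in control libraries 1, 2 and 3. The groups did not overlap, with means of 205 ± 3.90 and 187 ± 5.57 (SD, n = 3 each) and a log2 change of 0.13 (95% interval 0.062 to 0.20, limma adjusted p = 0.0155). Its call was lost without control 3 (adjusted p = 0.114). TARS2, the mitochondrial threonyl gene (chromosome 1, 150487364 to 150507609, plus strand), had 44.8, 43.6 and 42.1 in MAT1A libraries 1, 2 and 3 and 37.4, 39.4 and 39.6 in control libraries 1, 2 and 3. All MAT1A libraries were higher, and the log2 change was 0.16 (95% interval 0.062 to 0.26, adjusted p = 0.0352). Among the leave-one-out fits TARS2 kept its call without MAT1A 3 alone, with adjusted p of 0.136, 0.0540, 0.150, 0.0650 and 0.0778 without MAT1A 1, MAT1A 2, control 1, control 2 and control 3.

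The other 15 mitochondrial genes were not called. SARS2, the seryl gene, had the largest log2 change of all members, 0.22 (95% interval -0.029 to 0.48, limma adjusted p = 0.248), on few reads. The added 1 compresses a level this low: the log2 change was 0.34 with 0.1 added, 0.35 by edgeR and 0.36 by DESeq2 on recovered reads, not called by any of them. It stood at 2.10, 1.75 and 1.86 in MAT1A libraries 1, 2 and 3 and 1.49, 1.41 and 1.54 in control libraries 1, 2 and 3, from 34 to 40 reads in MAT1A and 26 to 32 reads in control libraries. SARS2 shares 1492 of its 3231 exon bases with an overlapping gene on the same strand and 349 with MRPS12 on the opposite strand, a ribosomal protein gene called higher (66.2 ± 4.38 in MAT1A, 58.0 ± 0.40 in control), so its reads are uncertain. NARS2, FARS2, CARS2 and AARS2 (asparagine, phenylalanine, cysteine, alanine) had log2 changes of 0.14, 0.13, 0.11 and 0.11, and CARS2 lay above control in all 3 MAT1A libraries (67.1 to 72.1 against 59.6 to 66.4). At the low end, RARS2 (-0.006) and YARS2 (-0.011) had changes near 0 with overlapping groups. The 2 mitochondrial genes for glutamate and proline, EARS2 and PARS2, had log2 changes of 0.020 and 0.037, where the fused cytosolic gene EPRS had 0.13.

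For 14 amino acids, a cytosolic gene and a mitochondrial gene can be set side by side. The cytosolic gene had the lower log2 change in 12 of 14, and the median difference, cytosolic minus mitochondrial, was -0.086. On the log2(value + 1) scale it was widest for threonine, where TARS had -0.084 and TARS2 0.16, followed by cysteine, where CARS had -0.098 and CARS2 0.11. The order depends on the scale: by edgeR on recovered reads serine was wider, with SARS at 0.018 and SARS2 at 0.35, where TARS had -0.086 and TARS2 0.16. The ratio of TARS to TARS2 was 8.76 ± 0.37 in MAT1A and 10.4 ± 0.20 in control libraries (SD, n = 3 each), and that of CARS to CARS2 was 1.19 ± 0.034 and 1.38 ± 0.10. The ratio was lower in every MAT1A library than in every control library for 6 amino acids (alanine, cysteine, isoleucine, serine and threonine among them). It was higher in every MAT1A library for 1 (arginine), and for 7 the groups overlapped. Among single genes, 15.6% of all tested lay wholly below control and 14.7% wholly above. No such share was computed for ratios of gene pairs, so these counts have none to be judged by. The serine ratio rests on the few, uncertain SARS2 reads. With 3 libraries a group an exact permutation test of a ratio cannot go below p = 0.10, and none was run. Arginine and tryptophan ran the other way, with RARS and WARS at 0.094 and 0.13 and RARS2 and WARS2 at -0.006 and 0.032.

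**Figure D3:**
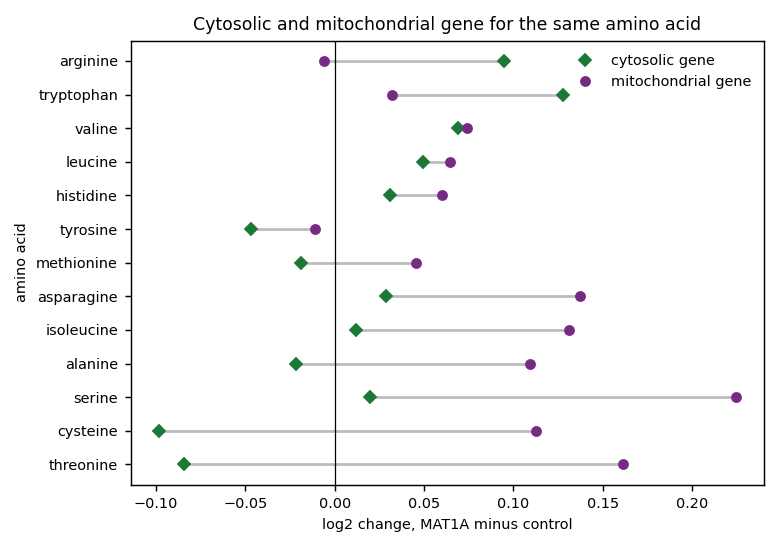
Log2 change (x axis, MAT1A minus control) of the cytosolic gene (diamonds) and the mitochondrial gene (circles) for 13 of the 14 amino acids, ordered by their difference. The diamond lies left of the circle in 11 of the 13 drawn, most widely on this log2(value + 1) scale for threonine (-0.084 and 0.16).

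Summed over the set, the mitochondrial genes stood at 789, 809.8 and 779 in MAT1A libraries 1, 2 and 3 and at 738, 755 and 743 in control libraries 1, 2 and 3, a difference of 6.36% between means. The cytosolic sum was 3603, 3684 and 3678 in MAT1A libraries 1, 2 and 3 and 3553, 3639 and 3574 in control libraries 1, 2 and 3, a difference of 1.85%, with MAT1A 1 below control 2. The mitochondrial sums did not overlap between groups, and the cytosolic sums did. Within each of the 3 pairs of same-numbered libraries, a pairing no label states, both sums were higher in the MAT1A library. The values of all genes also summed higher in MAT1A libraries (1005617 to 1015443) than in control libraries (997732 to 1002942). The part of this in the set sums was not tested. The cytosolic sum was 4.57, 4.55 and 4.72 times the mitochondrial sum in MAT1A libraries 1, 2 and 3, and 4.816, 4.819 and 4.813 times in control libraries 1, 2 and 3. No test was made of these sums. IARS2 is the most abundant mitochondrial member in them.

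Levels per kilobase of the longest principal transcript in the annotation put the cytosolic genes above their mitochondrial partners. Per kilobase, the cytosolic genes had a median value of 57.1 in MAT1A and 56.7 in control libraries, and the mitochondrial genes 11.99 and 11.60. GARS and KARS, at 108 and 127 in MAT1A libraries and 112 and 114 in control libraries, lay at or above the highest cytosolic gene (110.4 in MAT1A and 109 in control libraries), apart from GARS in MAT1A libraries, just below it. The cytosolic gene exceeded its partner per kilobase by a median of 5.06 times over the 14 amino acids in control libraries. The exception was cysteine, where the ratio of CARS to CARS2 per kilobase was 0.832 in MAT1A and 0.964 in control libraries. Serine lay at the other extreme, at 119 in MAT1A and 151 in control libraries, with the doubt about SARS2 reads given above. Library to library, the coefficient of variation had a median of 2.04% in MAT1A and 2.02% in control libraries for the cytosolic genes, and 3.86% and 3.95% for the less abundant mitochondrial genes.

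**Figure D4:**
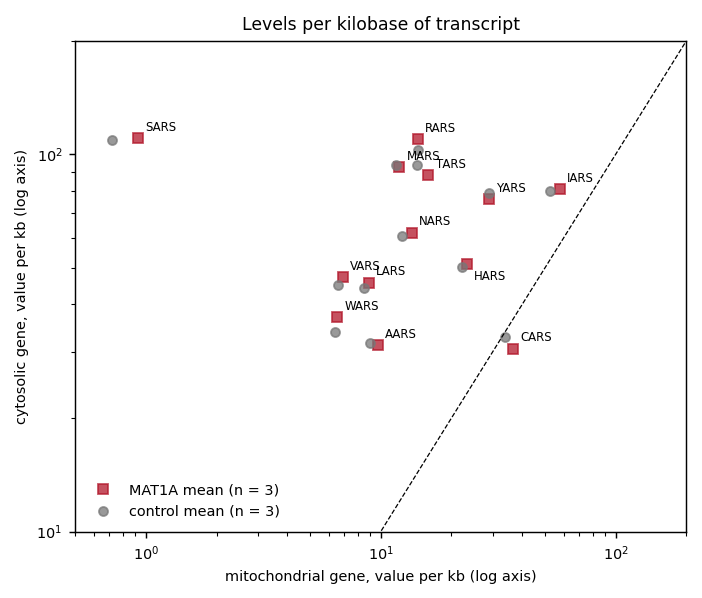
Mean value per kilobase of the cytosolic gene (y axis, log) against the mitochondrial gene (x axis, log) for 13 of the 14 amino acids; squares are means of 3 MAT1A libraries, circles of 3 control libraries, labels name the cytosolic gene and the dashed line marks equality. CARS lies at the line (0.832 in MAT1A and 0.964 in control libraries), and SARS lies farthest above it.

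The promoters of the cytosolic genes were read for the core of the C/EBP-ATF response element, TGATGNAA, on either strand, in the 300 bases from 250 before to 50 after each start in the RefSeq table for GRCh38.p14. The table held 30 of the 37 genes, and the other 7, DARS, LARS, VARS, YARS, AARS2 and VARS2 among them, were not read. The core stood in 8 of 30 synthetase genes (26.7%), against 4.46% of the 27305 genes in the table. These were 6 of 14 cytosolic genes read, GARS, and 1 of 14 mitochondrial genes, YARS2. The 30-base windows around the core are shown because the genes that hold it include the lowest changes. Capitals mark the core, printed as its reverse complement where it lies on the opposite strand (all but NARS), and all windows run 5′ to 3′ on the gene's strand.

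CARS, chr11:3057407-3057436, minus strand: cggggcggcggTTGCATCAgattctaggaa

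TARS, chr5:33440956-33440985, plus strand: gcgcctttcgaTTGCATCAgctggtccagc

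GARS, chr7:30594834-30594863, plus strand: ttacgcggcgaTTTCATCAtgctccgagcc

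AARS, chr16:70289675-70289704, minus strand: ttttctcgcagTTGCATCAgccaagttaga

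MARS, chr12:57488053-57488082, plus strand: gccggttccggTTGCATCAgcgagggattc

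IARS, chr9:92293692-92293721, minus strand: ttttcagcgcgTTGCATCAcctccgtgcgc

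NARS, chr18:57621804-57621833, minus strand: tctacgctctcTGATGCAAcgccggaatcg

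The 7 cytosolic and both-compartment genes whose window held the core had log2 changes from -0.098 (CARS) to 0.029 (NARS), with a median of -0.022, and 0 of the 7 was called. The 9 whose window did not hold it ran from 0.020 (SARS) to 0.15 (KARS), with a median of 0.094. Of these 9, 4 were called higher. Among all genes 4.01% were called higher, 7.40% were called lower and 51.5% had a positive change. At such shares 0 calls among 7 genes says little. Of the 7, 5 were below 0, and of the 9, none was. With the length and GC trend removed the medians were -0.047 and 0.10, and SARS, among the 9, was below 0 (-0.0035). The split by the core was made after values were seen. It leaves out DARS, LARS, VARS and YARS, which had no promoter to read (log2 changes -0.030, 0.049, 0.069 and -0.047). What is given is a description of letters in 1 window per start: no test was made, a match is not a bound site, and no match says nothing of the factor.

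**Figure D5:**
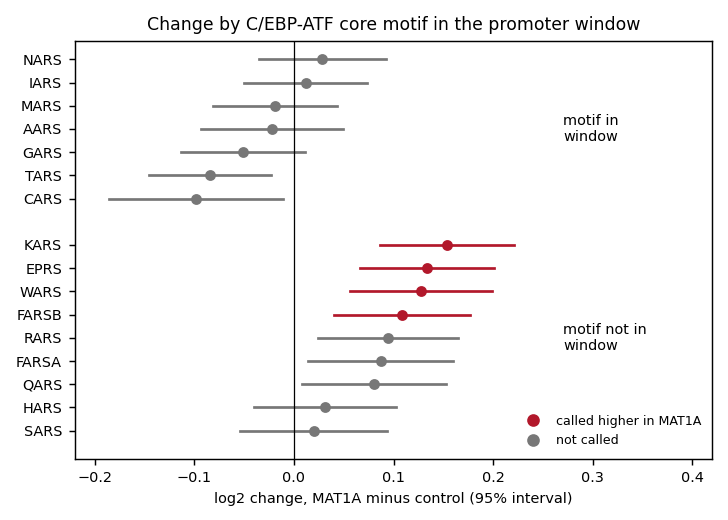
Log2 change (x axis, MAT1A minus control; lines are 95% intervals, n = 3 libraries per group) of the 16 cytosolic and both-compartment genes with a promoter in the table, split by whether the window held the C/EBP-ATF core. The 7 genes with the core lie between -0.098 and 0.029, and the 9 without it between 0.020 and 0.15.

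Other genes of the amino acid response were listed without any synthetase gene. Of 26 tested, 5 were called lower, 2 higher and 19 not called, with a median log2 change of -0.012, beside 7.40% lower and 4.01% higher among all genes. The lower genes named by rule were ASNS, DDIT3 and CEBPB. ASNS (asparagine synthetase) averaged 0.519 ± 0.04 in MAT1A and 1.36 ± 0.31 in control libraries (SD, n = 3 each), from 9 to 12 and 18 to 34 reads. It passed the filter on low values through the control libraries alone, so its call follows in part from the filter, and 4 other genes were called lower. With a filter of at least 5 or without any 1 control library it had no test. DDIT3, a transcription factor of stress responses, had a log2 change of -0.39 (adjusted p = 0.0136) and CEBPB, a C/EBP factor, -0.20 (0.0172). Named after their values were seen, ATF4 itself averaged 382 ± 11.8 in MAT1A and 410.5 ± 7.82 in control libraries (log2 change -0.10, adjusted p = 0.0450), and SESN2 had -0.21 (0.0232). The higher genes were SLC3A2 and SLC7A5, the chains of a heterodimeric transporter of large neutral amino acids, at 0.21 and 0.22.

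Several of these calls rest on single libraries. ATF4 kept its call without MAT1A 2 alone (adjusted p up to 0.166, without control 2). DDIT3 lost it without MAT1A 1 (0.0662) or control 3 (0.0954), CEBPB without control 3 (0.123), and SESN2 without any library but MAT1A 1 or MAT1A 3 (up to 0.0856, without control 1). SLC3A2 and SLC7A5 kept theirs throughout.

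WARS has a second RefSeq start whose 300-base window holds a gamma-activated site, TTCNNNGAA, and an interferon-stimulated response element, searched on both strands and found in 9.38% and 4.38% of all genes in the table. Both are shown because WARS is a textbook interferon target and was called higher; capitals mark the matches. The gamma-activated site was also in the windows of CARS, TARS, PARS2 and WARS2, with log2 changes of -0.098, -0.084, 0.037 and 0.032, and the response element in that of EARS2 (0.020).

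WARS, gamma-activated site, chr14:100375470-100375499, minus strand: gctcaagtgtTTCTGAGAAtctgggtgatt

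WARS, interferon-stimulated response element, chr14:100375383-100375412, minus strand: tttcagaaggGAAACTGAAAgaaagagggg

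Among 20 tested interferon gamma response genes other than WARS, 2 were called higher and 2 lower (10% each, against 4.01% and 7.40% of all genes) and 16 not called, with a median log2 change of 0.024. The share called lower is near that of all genes. IRF1, an interferon-induced transcription factor, averaged 49.7 ± 2.71 in MAT1A and 61.0 ± 1.39 in control libraries (SD, n = 3 each; log2 change -0.29, limma adjusted p = 0.000459), and GBP3, a guanylate-binding protein gene, had a log2 change of -0.42. The higher genes were PSMB8, a subunit of the immunoproteasome (0.21, adjusted p = 0.0377), and HLA-C (0.14, adjusted p = 0.0461). PSMB8 and HLA-C kept their calls without MAT1A 3 alone (adjusted p up to 0.140 and 0.181, without MAT1A 2 and control 3), and IRF1 and GBP3 kept theirs throughout.

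Some synthetase genes lie close together. HARS and HARS2 start 85 bases apart on opposite strands of chromosome 5, so that their 300-base windows overlap by 184 bases, and their annotated exons share 437 bases. Their log2 changes were 0.031 and 0.060, neither called. EPRS and IARS2, both called higher, are transcribed away from each other on chromosome 1 with starts 47627 bases apart. In all, 21 of the 37 genes share exon bases with another annotated gene, and 11 have pseudogenes named after them. The library kit named in the labels does not mark the strand, so reads from the shared bases could not be assigned to 1 gene, and how the authors' counting treated them is not given in the sources.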

How the data were processed

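RNA was sequenced with 36-cycle reads in 6 libraries (3 MAT1A, 3 control), grouped by sample title. The signal values deposited by the authors are reads per gene, close to CPM. STAR 2.6.0c, featureCounts, edgeR and the hg38 build are listed in the submitters' processing notes. Their settings and annotation were not given in the sources used here. In every column 100% of values were whole multiples of 1 step to within 0.001 reads, so reads were recovered by division. Each library's floor of 3 reads lay between 0.140 and 0.172; this covers counting error only, since reads are not independent molecules.

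The main test was limma 3.58.1 (R 4.3.3) with an intensity trend on log2(value + 1), for genes of at least 1 in at least 3 libraries, adjusted by Benjamini-Hochberg over 12866 genes. It was also run on simulated counts drawn independently for each library. These held no deviations shared between libraries and no length and GC trend, so the run cannot show how the test behaves under them. edgeR 4.0.16 and DESeq2 1.42.0 ran on recovered reads as alternatives and called 1426 and 957 genes, against 1468 by limma. Positions and lengths come from GENCODE release 29 on GRCh38 (13211 symbols matched), promoters from RefSeq. Libraries of the same replicate number deviated together (correlations 0.246, 0.178 and 0.191). Replicate numbers were therefore taken to pair samples in the blocked alternatives, a link no label states. The main test compared the groups without pairing. Members, gene lists and motifs were chosen with earlier results of these data known. The split into complex members and others and the split by the promoter core were made after values were seen. Values in every library are given for called members and for FARSA, TARS, CARS, GARS and SARS2. They are not given for YARS2, the lowest of the mitochondrial set. Of other lists, up to 3 called genes per direction, or the 2 most abundant, are named. EEF1E1, ATF4, SESN2, XPOT and EEFSEC are named besides. Values of 1 mitochondrial gene and 1 listed gene are not reported singly here; both remain in the counts, medians and sums.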

Additional observations from a re-analysis of the deposited data

How the results depend on the processing

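Over all genes, 1468 were called. DESeq2 on recovered reads called 957, an adjusted p under 0.01 left 663, the replicate block gave 2310, and that block after removal of the length and GC trend 2393; leaving out 1 library gave 749 to 1656. Of the cytosolic set, 3 were called higher: 1 by DESeq2, 0 at an adjusted p under 0.01, 0 to 3 without 1 library. The count called lower, 0, was 1 with a library total without MAT1A, 1 with the replicate block, 2 after removal of the length and GC trend, 3 when this was also blocked, and 0 to 1 without 1 library. Of the mitochondrial set, 2 were called higher: 1 by DESeq2, 0 at an adjusted p under 0.01, 0 to 2 without 1 library; its median log2 change, 0.074, was 0.049 after that removal, with or without the block. The causes were not tested. The medians ran from 0.024 to 0.048 (cytosolic), 0.065 to 0.088 (mitochondrial) and -0.095 to -0.065 (pair differences) without 1 library.

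Of 480 values of single genes under alternatives that keep all libraries, 453 kept direction and call, 9 lost and 11 gained a call and 7 changed sign, none of them called. IARS was -0.00011 with a library total without MAT1A. After removal of the length and GC trend, blocked or not, SARS was -0.0035, EARS2 -0.0036 and RARS2 0.012. Of 222 leave-one-out values, 10 changed sign: PARS2 ran from -0.026 to 0.084, RARS2 from -0.025 to 0.018, IARS from -0.00046 to 0.025, YARS2 from -0.050 to 0.029, SARS from -0.0052 to 0.049, EARS2 from -0.014 to 0.070 and WARS2 from -0.0090 to 0.085. SARS2 has no value with the filter of at least 5. The block called RARS (adjusted p = 0.0179) and TARS (0.0161) and changed no other synthetase call. SARS2 had 26 to 40 reads a library, PARS2 129 to 158 and FARS2 162 to 223.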

Other observations

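Of 23 tested genes of tRNA maturation and export, 3 were called higher (13.0%, against 4.01% of all genes) and 0 lower (against 7.40%). Of the 23, 20 had a positive change (87%, against 51.5% of all genes), and the median log2 change was 0.082, against 0.004 over all genes. XPO5, an exportin gene, averaged 119 ± 0.54 in MAT1A and 106 ± 4.74 in control libraries (SD, n = 3 each; log2 change 0.16, limma adjusted p = 0.00864). XPOT, another exportin gene of the list, was not called (log2 change -0.036, adjusted p = 0.510). ELAC2, which trims the 3′ end of tRNA precursors, averaged 110.4 ± 1.66 in MAT1A and 101.9 ± 3.15 in control libraries (0.11, adjusted p = 0.0483). XPO5 lost its call without control 1 (0.0635), and ELAC2 without any library but MAT1A 3 or control 2 (up to 0.219, without control 3). Of 25 tested genes of RNA polymerase III and its factors, 2 were called higher (8.0%, against 4.01% of all genes) and 0 lower (against 7.40%). The called genes were GTF3C5 (log2 change 0.14, limma adjusted p = 0.00984) and GTF3C1 (0.12, adjusted p = 0.0329), both subunits of TFIIIC. Of the 25, 17 had a positive change (68%, against 51.5% of all genes), and the median log2 change was 0.056. GTF3C5 lost its call without control 3 (0.0558) and GTF3C1 without MAT1A 1, control 1, control 2 or control 3 (up to 0.180).

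Of 6 tested genes that deliver aminoacyl-tRNA to ribosomes, 1 was called higher (16.7%, against 4.01% of all genes) and 0 lower (against 7.40%). The change was positive for 5 of the 6 (83.3%, against 51.5% of all genes), and EEFSEC had -0.10 (limma adjusted p = 0.346). The called gene was EEF1B2, a subunit of the exchange factor of the elongation factor EEF1A (552 ± 17.9 in MAT1A, 514 ± 14.6 in control, SD, n = 3 each). Its log2 change was 0.10 (limma adjusted p = 0.0498). EEF1B2 lost its call without MAT1A 1, MAT1A 2, control 1 or control 3 (up to 0.203). Of 10 tested synthetase-like genes and genes of indirect charging, 0 were called and 1 had an unadjusted p under 0.05; QRSL1 and GATC, subunits of the mitochondrial glutamyl-tRNA amidotransferase, had log2 changes of 0.095 and 0.062.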
